A study of Mus musculus with 4 samples.

Results

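The genes described here are 10 genes of Ret signalling and of the nephron progenitor: Ret, Gdnf, Gfra1, Etv4, Etv5, Spry1, Spry2, Six2, Cited1 and Eya1. They were chosen by name and found by Entrez number, and all 10 were among the 27179 genes of the table. The samples were 4 RNA sequencing libraries of mouse kidney medulla taken at postnatal day 14 from a mixed C57BL/6 strain. The controls, 2 libraries, are labelled wild type (Actr3 WT). The other 2 come from mice labelled Actr3-fl/fl*Cdh16-Cre (Actr3 KO), in which a floxed Actr3, the gene of the Arp3 subunit of the Arp2/3 actin nucleator, was combined with Cre under the promoter of the tubule cadherin gene Cdh16. Whether the controls carry floxed alleles or Cre is not given in the sources used here. The mice that gave each library are told apart only by the number in the sample title, so p-values measure the spread between these samples.

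In the developing kidney, the receptor tyrosine kinase Ret sits on the tip of the ureteric bud, the epithelium that branches into the collecting ducts. Gdnf, secreted by the mesenchyme around the tip, binds the co-receptor Gfra1 and activates Ret. The ETS transcription factors Etv4 and Etv5 are switched on downstream, and the Sprouty proteins restrain the signal. Six2, Cited1 and Eya1 mark the nephron progenitors that cap the tips. Six2 and Eya1 maintain them, and Eya1 is needed for Gdnf expression there. In the mouse these progenitors are used up shortly after birth, and Ret is then a gene of low expression in the collecting system.

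Reads assigned to genes, recovered from the normalized counts, summed to 36482238 to 40784436 per library. The targeted gene was higher in the KO-labelled libraries, with normalized read counts of 12587 and 12480 against 8065 and 7275 for Actr3, and a count over the whole gene does not show whether exons were deleted. The libraries are therefore named by their labels. The markers of the thick ascending limb and the collecting duct that define a medulla were present in all 4 libraries, with Slc12a1 at 28751 or more and Aqp2 at 4576 or more; proximal tubule markers were present as well, with Kap at 25130 or more. Of 16253 genes with a mean normalized count of at least 10, 8328 passed the test, 51.2% (limma, Benjamini-Hochberg adjusted p under 0.05), so a change of a single gene is common in this comparison. A log2 difference is the KO-labelled mean less the WT-labelled mean of log2(value + 1), so low genes look less changed than they are. A fold compares group means of normalized counts.

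Etv4 and Etv5, Ret and Gdnf were higher in the KO-labelled medulla, and Spry1, Cited1 and Eya1 were lower. Of the 10 members 9 were tested, because Six2 fell under the minimum mean. Of these 9, 4 rose and 3 fell, against 26.3% and 24.9% of all genes tested. The other 2, Gfra1 and Spry2, did not pass. The median log2 difference of the tested members was 0.29, and that of all genes tested was 0.0029. In 7 of the 9 tested members both KO-labelled values lay on the same side of both WT-labelled values, which was so for 78.5% of all genes tested. Etv4 passed the minimum through its KO-labelled values, its WT-labelled mean being 9.90.

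**Figure D1:**
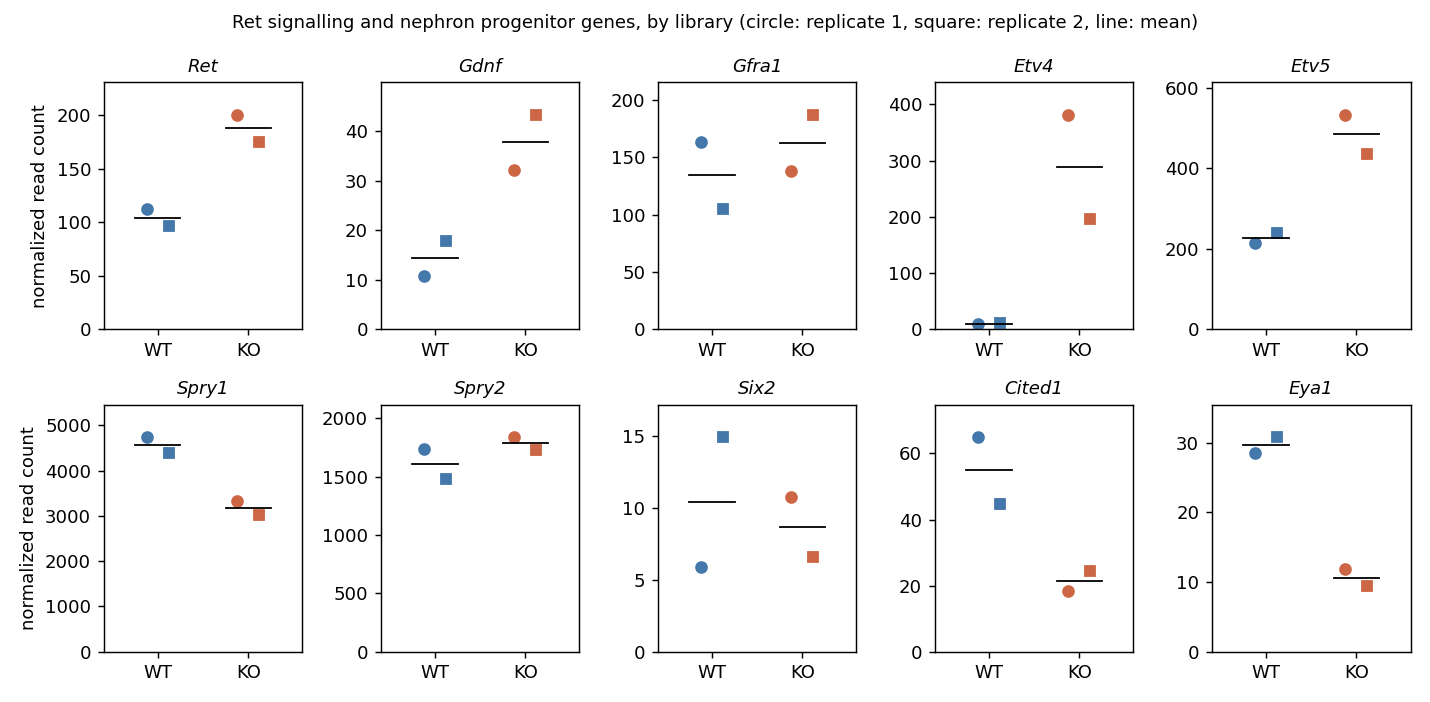
Normalized read counts of the 10 genes (vertical axes from 0, each with its own scale) in the WT-labelled and KO-labelled libraries; points are libraries and lines are means. Values of Gfra1, Spry2 and Six2 overlap between the groups, and the KO-labelled values of Etv4, 382 and 196, stand far above the WT-labelled 8.86 and 10.9.

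Promoter sequences are shown for called members, to give the DNA just before start sites of genes that rose and of one that fell. RefSeq start sites on GRCm38.p6 were matched for 7 of the 10 members, with 11 windows of 250 bases before a start. The windows printed are those of Gdnf, Etv5 and Cited1 that hold no annotated exon (GENCODE M21). Capitals mark GGAAGT or its reverse complement, a core sequence read by ETS factors, and each window is written 5′ to 3′ on the strand of its gene.
Gdnf, first start, chr15:7809798-7810047, plus strand: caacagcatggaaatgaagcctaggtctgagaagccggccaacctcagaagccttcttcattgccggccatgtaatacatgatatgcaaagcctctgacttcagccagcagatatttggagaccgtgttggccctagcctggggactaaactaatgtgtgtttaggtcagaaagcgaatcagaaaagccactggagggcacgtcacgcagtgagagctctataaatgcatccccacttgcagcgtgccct
Gdnf, second start, chr15:7813477-7813726, plus strand: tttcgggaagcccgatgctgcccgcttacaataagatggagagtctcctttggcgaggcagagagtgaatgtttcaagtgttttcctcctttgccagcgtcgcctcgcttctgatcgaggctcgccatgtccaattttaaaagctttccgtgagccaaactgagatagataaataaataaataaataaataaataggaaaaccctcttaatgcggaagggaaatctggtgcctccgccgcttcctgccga
Etv5, second start, chr16:22438369-22438618, minus strand: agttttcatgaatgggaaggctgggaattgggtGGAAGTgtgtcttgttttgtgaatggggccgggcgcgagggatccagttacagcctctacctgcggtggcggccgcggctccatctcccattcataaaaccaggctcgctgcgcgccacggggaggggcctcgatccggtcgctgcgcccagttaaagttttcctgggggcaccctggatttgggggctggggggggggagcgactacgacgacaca
Cited1, first start, chrX:102252182-102252431, minus strand: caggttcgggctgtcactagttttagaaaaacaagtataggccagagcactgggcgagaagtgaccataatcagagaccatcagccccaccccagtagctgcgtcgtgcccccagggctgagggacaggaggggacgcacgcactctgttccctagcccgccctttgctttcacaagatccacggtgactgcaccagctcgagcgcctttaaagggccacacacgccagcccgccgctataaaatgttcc
GGAAGT on either strand was found in 2 of the 11 windows, and it was found in 19.7% of all 32851 windows of the same length. These were the second start of Etv5, where it begins 217 bases before the start, and the third start of Cited1, where it begins 122 bases before. The AP-1 motif TGANTCA was in 0 of the 11 windows and in 6.75% of all windows. The motif TCAGGTTTC of Six2-type factors was in 0 of the 11 and in 0.387% of all. No motif searched contains another, and all were chosen after the values were seen. A match is a description of these letters, and a window without one says nothing of the factor.

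Marker genes of other cell types moved along with the members, in a comparison where 26.3% of all genes tested rose and 24.9% fell. In bulk tissue, fewer cells of a type and less RNA per cell cannot be told apart. The 10 genes of injured tubules all rose (summed level 55600 to 59438 in WT-labelled and 496958.3 to 593213 in KO-labelled libraries), as did the 12 markers of macrophages and dendritic cells (10760 to 11397 against 53429 to 54386). Of 10 fibroblast and pericyte markers 6 rose and 1 fell, with summed levels of 198407 to 206467 against 489385 to 568311. The 9 endothelial markers all fell, 81768 to 82512 against 26577 to 27728. Of 10 markers of the thick ascending limb 8 fell and 1 rose, 511402 to 529012 against 185618 to 264138. Of 10 principal cell markers 8 fell and 0 rose, 71774 to 84999 against 20358 to 25956. Of 9 proximal tubule markers 7 fell, 110559 to 167821 against 42634 to 71036, as did 6 of 8 intercalated cell markers, 21606 to 22999 against 7438 to 8923. Of 8 urothelial markers 7 fell and 1 rose, 4111 to 4395 against 822 to 1360. The 1 that rose, Krt20, named after its values were seen, is also among the 10 genes of injured tubules. The part of these marker shifts in the changes of Ret, Gdnf, Etv4, Etv5, Spry1, Cited1 and Eya1 was not tested. Sympathetic neurons express Ret and its co-receptors. Of the genes that define them, Th and Dbh had at most 1 read in any library and Hand2 none. The summed level of that list was 18.9 to 19.7 in the WT-labelled libraries against 156 to 241. Its 3 tested genes, Phox2a, Prph and Tubb3, passed the minimum mean only through the KO-labelled libraries, so they had to differ. The Schwann cell factor Sox10 had 0 and 1.99 against 17.2 and 17.0 and was under the minimum; with no minimum it was higher (log2 difference 3.39, limma adjusted p = 0.0119). Of 5 tested Schwann cell markers 1 rose and 1 fell, beside 26.3% and 24.9% of all genes tested. The part of neurons and Schwann cells in the changes of Ret and its co-receptors was not tested.

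Gdnf, the ligand, was scarce and higher in the KO-labelled libraries. Gdnf (Entrez 14573, chromosome 15, 7810048 to 7837580, plus strand) had normalized counts of 10.8 and 17.9 in the WT-labelled libraries and 32.2 and 43.3 in the KO-labelled ones. The groups did not overlap. They rested on 11 and 18 reads against 30 and 46, with exact 95% Poisson intervals of 5.49 to 19.7 and 10.7 to 28.5 against 20.2 to 42.8 and 33.7 to 61.4 (counting error only). The mean rose from 14.4 ± 4.99 to 37.8 ± 7.89 (SD, n = 2), 2.63-fold, or 1.36 ± 0.413 (SE) as a log2 difference (limma adjusted p = 0.03). The call was lost with DESeq2 (adjusted p = 0.101), without WT replicate 1 (limma adjusted p = 0.114) and without KO replicate 2 (0.122).

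Of the 3 ligands closest to Gdnf, 1 fell and 2 did not pass the test. Artn, artemin, had 192 and 186 against 107 and 85.7, and fell by 0.97 on the log2 scale (SE 0.213, limma adjusted p = 0.00835); it was named after its values were seen. Nrtn, neurturin, the ligand of Gfra2, had 220 and 293 against 288 and 198, with overlapping groups (log2 difference -0.09, limma adjusted p = 0.784). Pspn, persephin, had 23.6 and 42.7 against 18.2 and 13.2 and did not pass (log2 difference -0.99, limma adjusted p = 0.0975). Per kb of annotated exon, Gdnf made up 0.849% and 1.06% of the summed level of the 4 ligands in the WT-labelled libraries and 2.34% and 4.39% in the KO-labelled ones. Nrtn held most of that level in every library, from 61.8% to 75.4%. Gdf15, a more distant ligand that signals through Gfral and Ret in the brainstem and is known as a stress response gene, rose 4.51-fold, from 292 and 260 to 1219.5 and 1270.0 (log2 difference 2.17, limma adjusted p = 2.98e-05). Its receptor gene Gfral had no reads in any library.

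Ret, the receptor, rose. Ret (Entrez 19713, chromosome 6, 118151748 to 118197744, minus strand) had normalized counts of 112 and 96.4 in WT-labelled libraries against 201 and 175 in KO-labelled ones. Both KO-labelled values were above both others. The mean went from 104 ± 11.2 to 188 ± 17.9 (SD, n = 2), 1.80-fold, or 0.84 ± 0.207 (SE) as a log2 difference (limma adjusted p = 0.0132). The call was lost without WT replicate 2 (log2 difference 0.73, adjusted p = 0.0644) and without KO replicate 1 (0.75, adjusted p = 0.0748).

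Gfra1, the co-receptor that binds Gdnf, did not pass the test. Gfra1 (Entrez 14585, chromosome 19, 58235581 to 58455946, minus strand) had 164 and 105 in WT-labelled libraries against 138 and 187 in KO-labelled ones. The groups overlapped, and the mean of 134 ± 41.1 stood against 163 ± 34.7 (SD, n = 2; log2 difference 0.29, SE 0.279, limma adjusted p = 0.41). Without WT replicate 2 the log2 difference was -0.02. An annotated antisense gene, Gm16277, shares 416 of the 5476 exon bases of Gfra1, and the strand setting of the counting is not given in the sources used here.

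Gfra2, the co-receptor preferred by neurturin, rose; the difference between Gfra1 and Gfra2 was not tested. Its counts were 143 and 194 against 542 and 431, a 2.89-fold higher mean (log2 difference 1.53 ± 0.210 SE, limma adjusted p = 0.00105). Gfra4 had 49.2 and 51.7 against 64.4 and 71.6 and did not pass (log2 difference 0.42, limma adjusted p = 0.219). Gfra3 was under the minimum, at 2.95 and 8.95 against 4.29 and 18.8. Per kb of exon, the summed level of the 4 co-receptors was 94.4 and 102 in WT-labelled libraries against 210 and 198 in KO-labelled ones, and Gfra2 held 42.7% and 53.5% of it against 72.8% and 61.3%. Gfra1 held 31.6% and 18.8% against 12.02% and 17.26%. Ncam1, a cell adhesion molecule that also binds Gdnf with Gfra1, rose 2.12-fold (log2 difference 1.08, limma adjusted p = 0.000138).

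**Figure D2:**
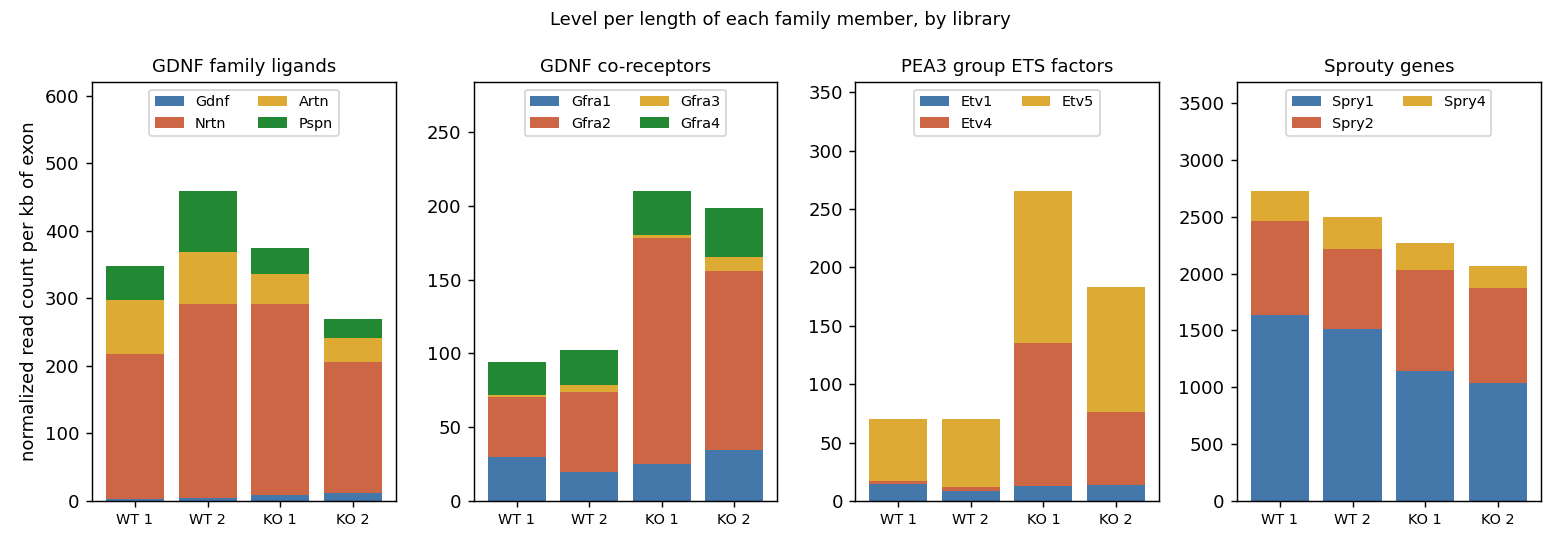
Level per length (normalized read count per kb of exon, axes from 0) of the GDNF family ligands, the co-receptors, the PEA3 group ETS factors and the Sprouty genes in each library, stacked by gene. In the ETS panel the summed level goes from 69.9 and 70.0 in the WT-labelled libraries to 266 and 183 in the KO-labelled ones, with Etv4 making up 46.3% and 34.5% of the latter.

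Of the adaptors and kinases that Ret engages inside the cell, 5 of 14 rose, 1 fell and 8 did not pass, where 26.3% of all genes tested rose and 24.9% fell. The largest difference was that of Dok5, a docking protein that binds activated Ret, from 5.91 and 7.95 to 66.5 and 87.6 (11.1-fold, log2 difference 3.30, limma adjusted p = 0.000485). Dok5 passed the minimum mean only through its KO-labelled values. The others that rose, named after their values were seen, were Src, Grb10, Shc1 and Grb2, by 0.78, 0.74, 0.43 and 0.28 on the log2 scale. For Grb2 the call was lost in 5 of 15 alternatives. Plcg1, phospholipase C gamma, fell by 0.38 on the log2 scale. The median of the list was 0.01.

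Etv4 had the largest rise of the members. Etv4 (Entrez 18612, chromosome 11, 101769747 to 101785310, minus strand) had normalized counts of 8.86 and 10.9 in WT-labelled libraries against 382 and 196 in KO-labelled ones. It was close to silent in both WT-labelled libraries and higher in KO replicate 1 than in KO replicate 2. The mean went from 9.90 ± 1.46 to 289 ± 131 (SD, n = 2), 29.2-fold, or 4.66 ± 0.378 (SE) as a log2 difference (limma adjusted p = 0.000111). Over the alternatives the log2 difference ran from 4.18 to 5.14. Where a minimum mean was set, Etv4 passed it only through its KO-labelled values. With no minimum the limma adjusted p was 0.000899. The highest with all 4 libraries was 0.00415 (limma, no variance trend).

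Etv5, its close paralog, was already expressed in the WT-labelled libraries and also rose; the difference between the rises of Etv4 and Etv5 was not tested. Etv5 (Entrez 104156, chromosome 16, 22381313 to 22439570, minus strand) had 216 and 239 against 534 and 437. The groups were apart, and the mean went from 227 ± 16.2 to 486 ± 68.6 (SD, n = 2), 2.14-fold, or 1.09 ± 0.166 (SE) as a log2 difference (limma adjusted p = 0.00172). The third member of this ETS group, Etv1, overlapped between the groups, with 192 and 110 against 165 and 175 (log2 difference 0.22, limma adjusted p = 0.536). Per kb of exon, Etv4 was 4.09% and 5.04% of the summed level of the 3 factors in the WT-labelled libraries and 46.3% and 34.5% in the KO-labelled ones. Etv5 went from 75.2% and 83.1% to 49.0% and 58.3%.

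The Sprouty genes, feedback inhibitors of receptor tyrosine kinases, gave 1 gene that fell and 2 that did not pass. Spry1 (Entrez 24063, chromosome 3, 37639947 to 37644599, plus strand), the Sprouty that restrains Ret in the ureteric bud, had 4743 and 4386 against 3330 and 3025. The groups were apart, and the mean fell from 4564 ± 252 to 3178 ± 216 (SD, n = 2), 1.44-fold, or -0.52 ± 0.0872 (SE) as a log2 difference (limma adjusted p = 0.00256). An annotated transcript of unknown coding potential on the opposite strand, Gm42922, shares 710 of the 2906 exon bases of Spry1. Spry2 (Entrez 24064, chromosome 14, 105891947 to 105896819, minus strand) had 1742 and 1479 against 1842 and 1730, overlapping groups or 0.15 ± 0.107 (SE) as a log2 difference (limma adjusted p = 0.269). Spry4 had 1245 and 1335 against 1167 and 920 and did not pass (log2 difference -0.31, limma adjusted p = 0.0861), and Spry3 had no reads. Per kb, Spry1 was the most abundant Sprouty in every library, at 59.8% and 60.4% of their summed level in WT-labelled and 50.4% and 50.5% in KO-labelled libraries.

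**Figure D3:**
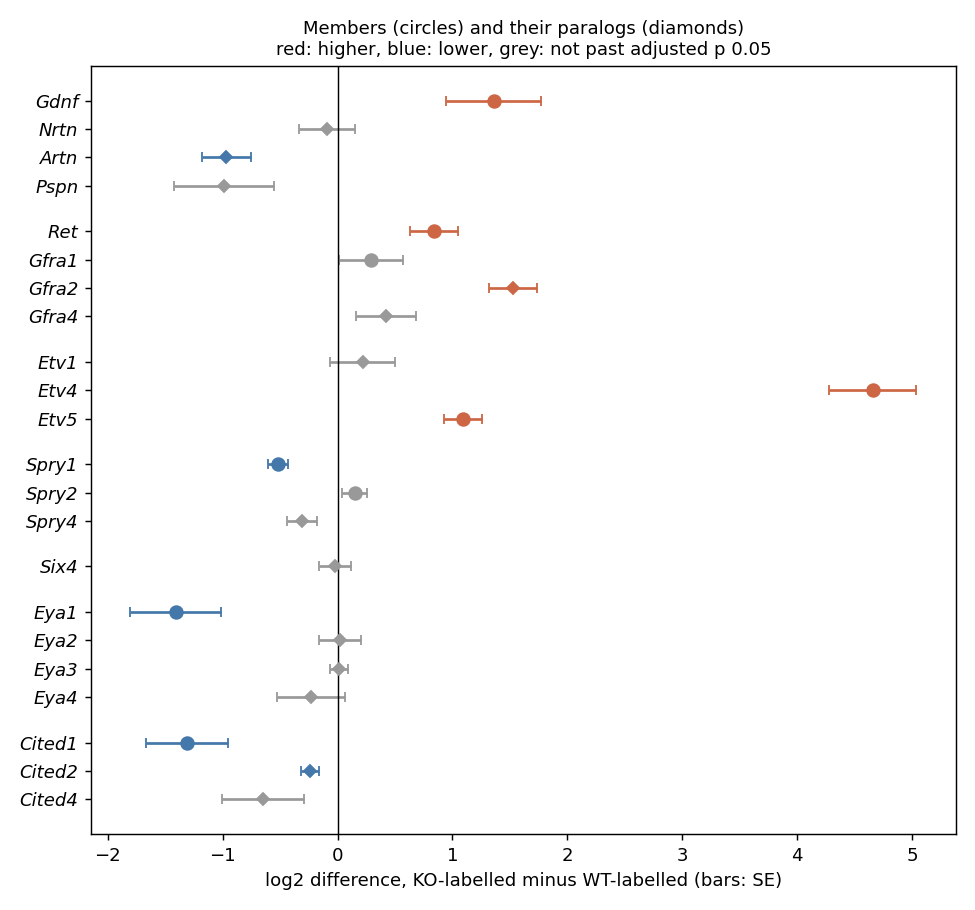
Log2 differences, KO-labelled minus WT-labelled (horizontal axis; bars are SE), of the 9 tested members (circles) and of tested paralogs (diamonds). Etv4 stands at 4.66 and Etv5 at 1.09 beside Etv1 at 0.22, and Eya1 at -1.41 beside Eya2 and Eya3 at 0.02 and 0.01.

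Of 11 tested genes, members left out, that read out or restrain Ras-MAPK signalling, 5 rose, 0 fell and 6 did not pass (median 0.38). Of all genes tested 26.3% rose and 24.9% fell, 51.2% in either direction. Among the members of this kind, described above, Etv4 and Etv5 rose, Spry1 fell and Spry2 did not pass. Egr1, an immediate early transcription factor, went from 930 and 692 to 8363 and 7441 (9.75-fold, log2 difference 3.30, limma adjusted p = 1.27e-05). The ERK phosphatase gene Dusp5 went from 32.5 and 44.7 to 206 and 213 (5.42-fold, limma adjusted p = 0.000329), and Dusp4 from 596 and 402 to 1281 and 937 (2.22-fold, limma adjusted p = 0.00461). Dusp6 and Spred1, named after their values were seen, rose by log2 differences of 0.38 and 0.44. The call of Dusp6 was lost without WT replicate 2, without KO replicate 1 and with no variance trend (adjusted p up to 0.0963).

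Many receptors feed the same ETS and feedback genes, so FGF and EGF family receptors and ligands and Hgf were read as well. Of these 19 genes 9 rose, 6 fell and 4 did not pass, against 26.3% higher and 24.9% lower over all genes tested. The epidermal growth factor family ligand Ereg rose from 4.93 and 1.99 to 152 and 163, Hbegf from 1576 and 1325 to 3161 and 3419 and Tgfa from 457 and 437 to 1065 and 941. Ereg and its relative Areg, which is in the count, passed the minimum mean only through the KO-labelled libraries. Fgf10, a ligand that supports ureteric branching, rose 4.26-fold, from 216 ± 36.4 to 920 ± 324 (SD, n = 2; limma adjusted p = 0.00065). Egf and Fgfr4 fell by 6.43 and 2.39 on the log2 scale. The share of each receptor in the rise of Etv4 and Etv5 was not tested.

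Genes of the ureteric bud moved both ways, with 10 of 21 higher, 4 lower and 7 not past the threshold (median 0.23), beside 26.3% and 24.9% of all genes tested. Sox9, a transcription factor needed with Sox8 for the response to Ret, went from 41.4 and 45.7 to 1339 and 850 (25.1-fold, limma adjusted p = 2.24e-05), and it is also an injury gene of tubules. Sox8, named after its values were seen, had 1.97 and 9.94 against 544 and 442, or 6.43 ± 0.577 (SE) as a log2 difference (limma adjusted p = 0.000168), and it passed the minimum mean only through its KO-labelled values. Myb, also named afterwards, went from 55.2 and 55.7 to 92.2 and 102, and its call (log2 difference 0.80, limma adjusted p = 0.0305) was lost in 7 of 15 alternatives, with each library left out in turn among them.

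Wnt11, a Ret target at the tip that in turn maintains Gdnf, went the other way. Its counts were 1802 and 1829 against 748 and 781, and it fell 2.38-fold (log2 difference -1.25 ± 0.0933 SE, limma adjusted p = 7.97e-05). Adamts18, another tip gene, had 338 and 303 against 102 and 228 and fell by 1.06 on the log2 scale (adjusted p = 0.0402), a call lost in 7 of 15 alternatives. Mmp14, a membrane metalloproteinase, and Tfap2a rose 4.28-fold and 4.59-fold, while Tfap2b, the paralog of Tfap2a, fell 2.85-fold. Calb1, calbindin, fell from 617 and 2475 to 191 and 211, with a wide spread between the WT-labelled libraries, and its call (limma adjusted p = 0.00711) was lost without a variance trend and with a robust one (adjusted p up to 0.0994). Lhx1, a transcription factor of the bud and of early nephrons, rose from 150 and 211 to 445 and 329, a log2 difference of 1.10 (limma adjusted p = 0.00726); it was named after its values were seen. Gata3, which controls Ret in the bud, overlapped between the groups, at 2078 and 2015 against 2457 and 1828 (log2 difference 0.05, limma adjusted p = 0.783).

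**Figure D4:**
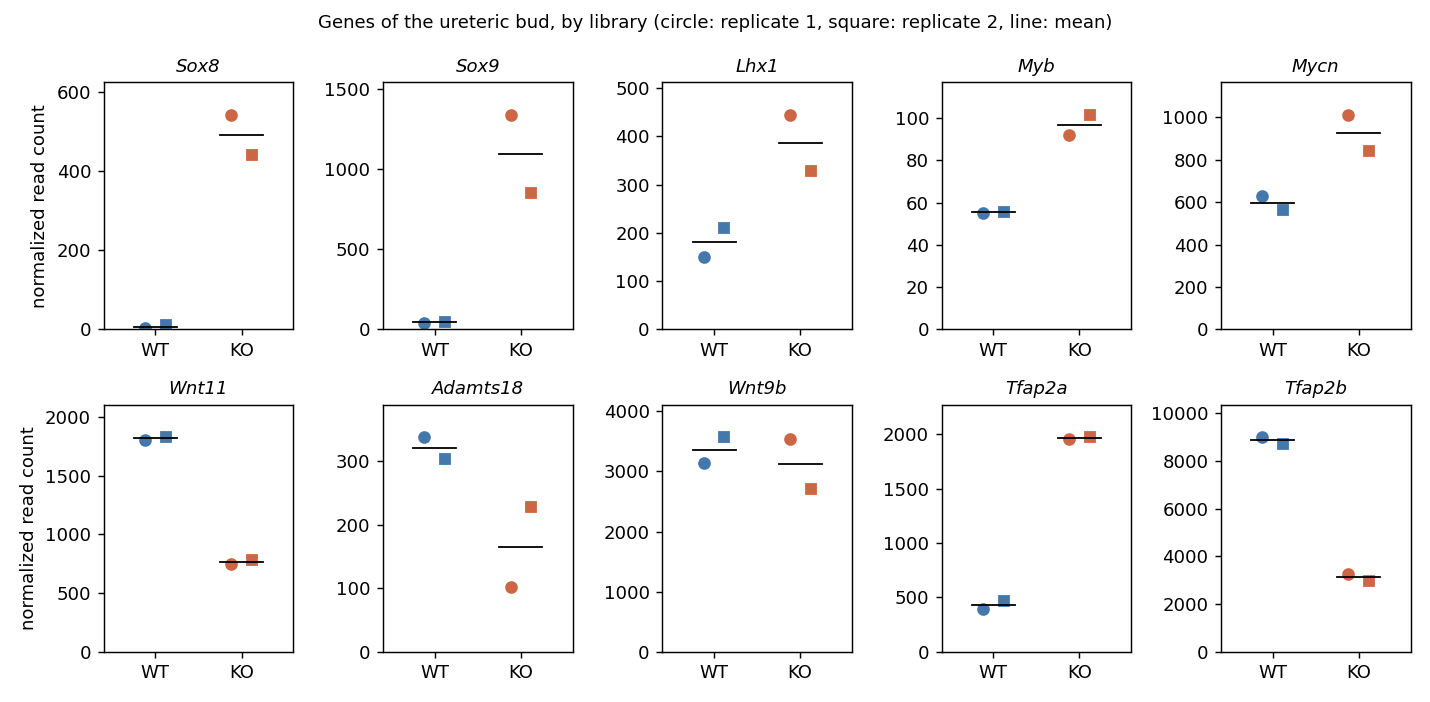
Normalized read counts (vertical axes from 0, each with its own scale) of 10 ureteric bud genes in the WT-labelled and KO-labelled libraries; points are libraries and lines are means. Sox8 and Sox9 are near the bottom of their axes in both WT-labelled libraries, Wnt11 goes from 1802 and 1829 to 748 and 781, and Wnt9b overlaps between the groups.

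Genes that control where and how much Gdnf is made or acts were mostly lower: of 9 tested 7 fell, 1 rose and 1 did not pass (median -0.67), where 24.9% of all genes tested fell and 26.3% rose. Robo2, the receptor of Slit2, fell from 3482 and 3029 to 1203 and 1289 (2.61-fold, limma adjusted p = 7.06e-05). Agtr2, the type 2 angiotensin receptor, fell from 120 and 147 to 20.4 and 19.8 (6.66-fold, limma adjusted p = 0.000333). Slit3 was the one that rose, 2.47-fold (limma adjusted p = 0.000234). The others that fell, named after their values were seen, were Bmp4, Foxc2, Bmp7, Slit2 and Foxc1, with log2 differences from -0.85 to -0.46.

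Six2, the transcription factor that holds nephron progenitors in self-renewal, was at the edge of detection. Six2 (Entrez 20472, chromosome 17, 85662736 to 85688254, minus strand) had 5.91 and 14.9 in WT-labelled libraries against 10.7 and 6.59 in KO-labelled ones, from 6, 15, 10 and 7 reads. The exact 95% Poisson intervals of those reads, 2.202 to 13.06, 8.39 to 24.7, 4.79 to 18.4 and 2.81 to 14.4, overlap throughout. With no minimum mean the log2 difference was -0.15 (SE 0.573, limma adjusted p = 0.852), so a difference was not detectable at this depth.

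Cited1, a transcriptional coregulator of the least committed progenitors, fell. Cited1 (Entrez 12705, chromosome X, 102247378 to 102252181, minus strand) had 65.0 and 44.7 against 18.2 and 24.5, from 66, 45, 17 and 26 reads. The exact 95% Poisson intervals of those reads were 51.0 to 84.0 and 32.8 to 60.2 against 9.90 to 27.2 and 17.0 to 38.1 (counting error only). Those of WT replicate 2 and KO replicate 2 overlap. The groups were apart, and the mean fell from 54.9 ± 14.3 to 21.4 ± 4.43 (SD, n = 2), 2.57-fold, or -1.31 ± 0.359 (SE) as a log2 difference (limma adjusted p = 0.0202). The call was lost with DESeq2 (adjusted p = 0.0511), without WT replicate 1 (limma adjusted p = 0.112) and without KO replicate 1 (0.0721).

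Eya1, the phosphatase and coactivator that works with Six2-type factors, fell as well. Eya1 (Entrez 14048, chromosome 1, 14168953 to 14311035, minus strand) had 28.6 and 30.8 against 11.8 and 9.42, from 29, 31, 11 and 10 reads. The groups were apart, and the mean fell from 29.7 ± 1.59 to 10.6 ± 1.68 (SD, n = 2), 2.80-fold, or -1.41 ± 0.393 (SE) as a log2 difference (limma adjusted p = 0.0217). The call was lost with DESeq2 (adjusted p = 0.108), without either WT-labelled library (limma adjusted p = 0.0655 and 0.0813) and without KO replicate 2 (0.0644).

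The paralogs of Eya1 and Cited1 carried most of each family's level. Per kb of exon, the summed level of Eya1 to Eya4 was 483 and 471 in WT-labelled libraries against 482 and 472 in KO-labelled ones, and Eya1 was 0.757% and 0.838% of it against 0.313% and 0.256%. The log2 differences of Eya2, Eya3 and Eya4 were 0.02, 0.01 and -0.23, none past the threshold, with limma adjusted p = 0.927, 0.931 and 0.548. Six4, a paralog of Six2, overlapped between the groups, at 735 and 634 against 619.9 and 729 (limma adjusted p = 0.906). Cited2, the abundant member of its family at 6015 and 6220 against 4966 and 5402, fell by 0.24 on the log2 scale (limma adjusted p = 0.0401), a call lost in 8 of 15 alternatives. Cited4 did not pass (log2 difference -0.65, limma adjusted p = 0.169).

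Compared per kb of exon, the Sprouty genes were the most abundant members in the WT-labelled medulla. Spry1 was at 1571 and Spry2 at 772 on average, then came Etv5 at 55.4, Cited1 at 31.3, Gfra1 at 24.6 and Ret at 15.4. Six2, Gdnf, Eya1 and Etv4 formed the bottom, at 4.91, 3.91, 3.80 and 3.19. Values overlapped among Six2, Gdnf and Eya1, and between Cited1 and Gfra1. Those of Etv4, 2.86 and 3.52, overlapped with Six2 and Gdnf. Both values of Eya1, 3.66 and 3.95, lay above those of Etv4, which rested on only 9 and 11 reads. In the KO-labelled libraries Etv4 stood at 93.1, next to Etv5 at 118, with overlapping values. Ret at 27.8 overlapped with Gfra1 at 29.8, Cited1 at 12.2 overlapped with Gdnf at 10.3, and Six2 at 4.09 and Eya1 at 1.36 came last.

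Other genes of nephron progenitors were lower more often than higher: of 24 tested 11 fell, 2 rose and 11 did not pass (median -0.33), against 24.9% lower and 26.3% higher among all genes tested. Tmem100 fell from 3428 and 3707 to 388 and 418 (8.85-fold, limma adjusted p = 4.48e-06); it is also a gene of endothelium, whose 9 markers all fell. Itga8, the integrin of the metanephric mesenchyme that also marks mesangial and interstitial cells, fell from 11690 and 9277 to 1591 and 2073 (5.72-fold, limma adjusted p = 3.72e-05). Igf2bp1, a fetal RNA-binding protein, fell by 1.98 on the log2 scale, and Fgf9, a ligand that maintains progenitors, by 1.07. Sall1 and Pax2, named after their values were seen, fell by 0.78 and 1.14 on the log2 scale, and both are also expressed in the mature tubule. Dach2, a cofactor of Eya proteins, and Traf1 rose 5.69-fold and 2.97-fold. Fgf20 and Lin28a had no reads in any library.

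Genes of the early nephron, which progenitors switch on as they differentiate, were split, with 5 higher, 6 lower and 3 not past the threshold of 14 tested (median 0.09), where 26.3% of all genes tested were higher and 24.9% lower. Wnt4, the inducer of the epithelial transition, rose from 835 and 881 to 4303 and 4485 (5.12-fold, limma adjusted p = 6.46e-06). Bmp2 and Cdh4 rose 3.51-fold and 2.38-fold. Ccnd1, cyclin D1, fell from 19321 and 22475 to 9798 and 9386 (2.18-fold, limma adjusted p = 0.000135). Irx1 and Irx3, transcription factors of the intermediate nephron segments, fell 2.17-fold and 2.05-fold. Of 8 genes of stromal progenitors 3 fell, 1 rose and 4 did not pass, beside the same shares of all genes; Foxd1, which defines these cells, had 57.1 and 76.5 against 35.4 and 49.0 (log2 difference -0.65, limma adjusted p = 0.124).

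**Figure D5:**
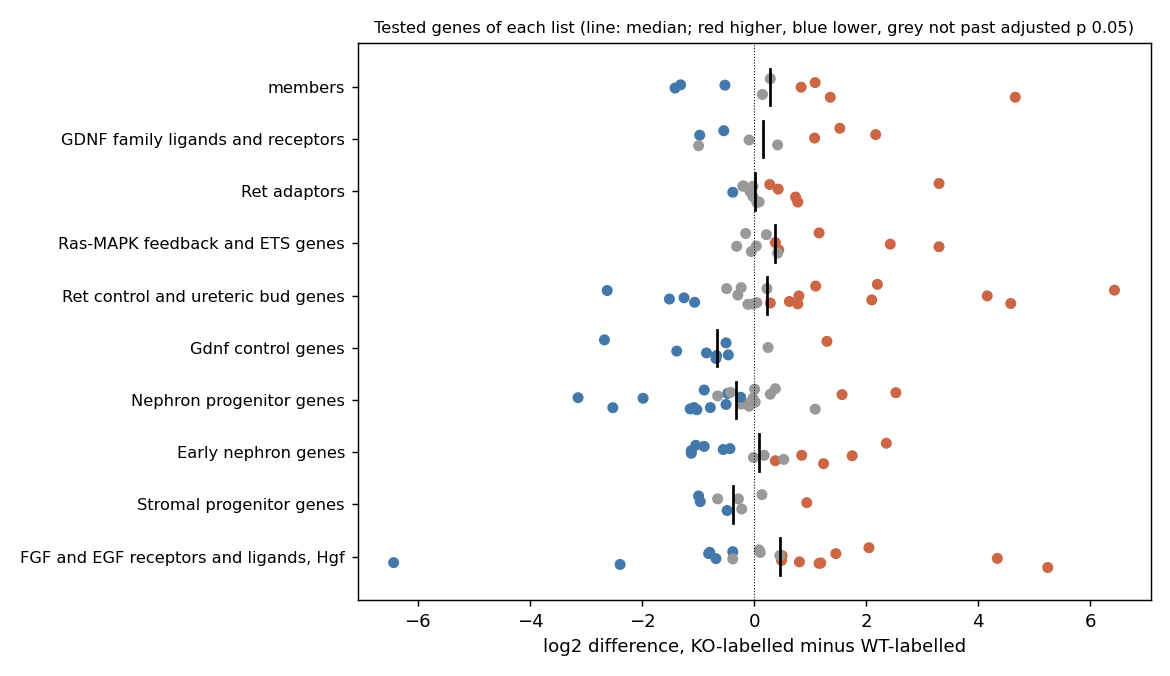
Log2 difference, KO-labelled minus WT-labelled (horizontal axis), of each tested gene of the member list and of 9 other lists; each point is a gene, vertical position within a list is only for legibility, and lines are medians. The medians run from -0.67 for genes that control Gdnf to 0.46 for FGF and EGF family receptors and ligands with Hgf.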

How the data were processed

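Total RNA of the medulla was sequenced in 4 libraries, and each gene has 1 signal value per library, deposited by the authors as normalized gene read counts; each column's values are whole multiples of 1 step (100% whole within 0.001), as reads scaled by a library factor are. The submitters' processing notes list HISAT2 2.2.1, fastp 0.20.1, DESeq2 2.11.40.7 and featureCounts 2.0.1, with mm10/GRCm38. Which annotation and strand setting were used is not given in the sources used here. Groups and replicate numbers come from the sample titles.

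Entrez numbers were matched to RefSeq symbols of GRCm38.p6 (25275 of 27179). Groups were compared two-sided on log2(value + 1) by limma 3.58.1 (R 4.3.3, variance trend) for 16253 genes with a mean of at least 10, with p-values adjusted by the Benjamini-Hochberg method over all of them. Levels per kb used the union of GENCODE M21 exons. Alternatives were other pseudocounts, minimums, scalings and variance models, edgeR 4.0.16 and DESeq2 1.42.0 on recovered reads, a replicate block, and each library left out. Intervals of reads show counting error alone, because PCR copies cannot be recognised without molecular identifiers.

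The genes, lists and motifs were chosen with earlier results of these data known. Every member is named; of other lists, called genes that differed by 1 or more on the log2 scale, up to 4 of smallest adjusted p per direction, and paralogs of the members; of the marker lists, the 2 highest in the WT-labelled libraries could be named. Exceptions are marked in the text as named after their values were seen; the single neuron and Schwann cell genes were too. Some genes that this rule names are not reported here. On simulated data with 15974 genes, 99 were given a log2 difference of 1 and 95 a log2 difference of 2. Of these limma found 73.7% and 92.6%, while 8.5% of its calls were unchanged genes. In the data 51.2% of genes tested were called, a far larger share than was changed in the simulation, so these rates need not hold there.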

Additional observations from a re-analysis of the deposited data

How the results depend on the processing

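Of the members, 4 rose and 3 fell. The count of members that fell was 1 with a mean of at least 50 (6 members tested) and 1 with DESeq2 on recovered reads, and ranged from 1 to 2 with each library left out in turn; the count that rose was 3 or 4 in every alternative run. Etv4, Etv5 and Spry1 passed the threshold in all 15 alternatives. Calls of Ret, Gdnf, Cited1 and Eya1 were lost where given beside each, with the direction the same in every alternative that tested them; the minimum of 50 left Gdnf, Cited1 and Eya1 untested. The log2 difference of Gfra1 ranged from -0.02 (without WT replicate 2) to 0.61 (without WT replicate 1), and passed in no alternative. Without WT replicate 1 the calls of Gdnf, Cited1 and Eya1 were all lost, and 1 member fell. In the alternatives that kept all 4 libraries, 22 to 25 other Ret pathway genes rose and 11 to 14 fell (63 tested in the main fit). Among other nephron progenitor and early nephron genes 6 to 8 rose and 13 to 17 fell (38 tested in the main fit). Of all genes 3424 to 4305 were higher and 3306 to 4230 lower in those alternatives (16253 tested in the main fit). The deviations of same-numbered libraries from their group means had a correlation of -0.0564 over the genes tested. With 2 libraries per group this cannot show whether the samples were paired. With a replicate block 4 members rose and 3 fell, and 3810 genes were higher and 3619 lower in all. Leaving out a library leaves 1 in its group, which is then assumed to vary like the other group. Depth limits Six2, Gdnf, Eya1 and the WT-labelled level of Etv4, each with under 50 reads per library. It also limits Cited1, with 66 and 45 reads in the WT-labelled libraries and 17 and 26 in the KO-labelled ones.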
